A study of Homo sapiens with 24 samples.

Results

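The transcripts of 10 genes that set the threshold for apoptosis were followed: 3 pro-survival genes of the BCL2 family (BCL2, BCL2L1, MCL1), its pore-forming effector BAK1, 4 BH3-only genes (BCL2L11, BID, BBC3, PMAIP1) and the receptors for the death ligand TRAIL (TNFRSF10A, TNFRSF10B). They were chosen by symbol, with no measured value in the rule, but with earlier results of these data known. All 10 were found, each in 1 row of the 48162 genes that every library lists.

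The study asked what extracellular vesicles (EVs, membrane particles shed by cells) from pancreatic cancer cells do to normal pancreas cell lines. RNA-seq was made from 24 libraries, which the series describes as biological triplicates of 8 groups. The lines were hTERT-HPNE (HPNE below), a pancreas line immortalised with telomerase, and HPDE-H6c7 (HPDE below), an immortalised pancreatic duct epithelial line. The labels call both normal pancreas cells, and every group therefore carries an immortalisation. For 24 h each line was given fresh serum-free medium (untreated), the residual medium left after EV isolation (the negative control), 10000000000 EVs per well from PANC-1 cells, or the same number from PPCL-68 cells. Within a line, no genotype or further agent separates the groups. Each line stands for 1 culture history, so the lines are compared as these 2 lines and not as cell types.

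Apoptosis through mitochondria is decided by binding between BCL2 family proteins. Pro-survival members hold back the effectors BAK1 and BAX, and BH3-only proteins bind the pro-survival members, or the effectors directly, so that the mitochondrial outer membrane is opened. Apoptosis through death receptors starts when TRAIL binds TNFRSF10A (DR4) or TNFRSF10B (DR5), which gather FADD and caspase-8; the BH3-only protein BID links this route to mitochondria. Several of these genes are known to be switched on during the unfolded protein response, in which the transcription factors ATF4 and DDIT3 (CHOP) act after protein folding in the endoplasmic reticulum is disturbed.

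Levels are given in FPKM as the authors deposited them, that is, reads scaled by the length of the gene and by the total of the library. Libraries held 29209142 to 46490312 reads assigned to genes. In HPNE, each group had 1 library that stood apart from the other 2 (untreated replicate 3, residual medium replicate 3, PANC-1 EV replicate 1 and PPCL-68 EV replicate 1): its mean distance to the other 2 over the genes tested was 2.05 to 3.31 times the distance within that close pair, against 1.08 to 1.24 times in HPDE. HPNE carried mesenchymal transcripts (COL1A1 at 1411 to 4337 FPKM, VIM at 149 to 539) and nearly lacked the epithelial markers EPCAM (at most 0.162 FPKM) and CDH1 (at most 0.112), although the study calls its recipient cells epithelial. HPDE held EPCAM at 148 to 192 FPKM and CDH1 at 44.9 to 56.6. The 6 markers listed for HPNE summed in that line to 6211 to 7314 FPKM in untreated cells, 3896 to 5970 with residual medium, 4063 to 5683 with PANC-1 EVs and 2536 to 3001 with PPCL-68 EVs, and to 23.5 to 36.2 in HPDE. The 6 listed for HPDE summed in that line to 3800 to 3983, 3035 to 3380, 1768 to 1989 and 1137 to 1196 FPKM in the same order, and to 4.19 to 12.5 in HPNE. Blood-cell markers summed to at most 0.0812 FPKM in any library. The 5 proliferation markers summed to 32.5 to 76.9 FPKM in untreated HPNE, 59.4 to 246 with residual medium, 42.8 to 57.8 with PANC-1 EVs and 22.8 to 40.9 with PPCL-68 EVs. In HPDE those sums were 322 to 347, 291 to 316, 202 to 204 and 149 to 167 FPKM in the same order. The part of these marker levels in the results below was not tested. As the RNA came from whole cultures, a lower level per cell and fewer cells that carry a transcript cannot be told apart.

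On the hg19 build of the deposited tables the genes lie at chr18:60790579-60987361 (BCL2, minus strand), chr20:30252255-30311792 (BCL2L1, minus), chr1:150547032-150552066 (MCL1, minus), chr6:33540329-33548019 (BAK1, minus), chr2:111876955-111926024 (BCL2L11, plus), chr22:18216906-18257536 (BID, minus), chr19:47724081-47736023 (BBC3, minus), chr18:57567180-57571538 (PMAIP1, plus), chr8:23047965-23082639 (TNFRSF10A, minus) and chr8:22877646-22926692 (TNFRSF10B, minus). The tables type all 10 as protein-coding, and a value counts reads over the whole gene, so splice forms (such as the long and short forms of BCL2L1 and MCL1, which act in opposite ways) are not separated. The library kit kept no strand. Genes on the opposite strand overlap TNFRSF10A (RP11-1149O23.2, at most 13.0 FPKM and 283 reads in any library) and TNFRSF10B (RHOBTB2, 3.41 to 8.11 FPKM), and reads shared with them cannot be told apart. Overlapping genes of BCL2 and BCL2L1 had at most 2 and 14 reads, and the other members had no overlapping gene.

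In untreated cells the lines differed in 7 of the 9 members tested, where 83.8% of all 12377 genes tested did. The count therefore does not set the members apart. TNFRSF10A, the receptor DR4, was at 25.8, 25.6 and 26.6 FPKM in untreated HPDE and at 0.145 to 0.363 FPKM over all 12 HPNE libraries. PMAIP1, which encodes the BH3-only protein NOXA, a partner of MCL1, was at 45.3, 41.1 and 43.3 FPKM in HPDE and 5.70, 5.65 and 5.87 FPKM in HPNE. BBC3, which encodes the BH3-only protein PUMA, went the other way, with 4.995, 3.84 and 4.70 FPKM in HPDE and 23.9, 22.6 and 12.2 FPKM in HPNE. The untreated ranges of these 3 did not overlap between the lines. The share of all genes without overlap was not counted, here or below, so a lack of overlap does not set a member apart. Among the 9 members with a mean of at least 1 FPKM over the 24 libraries, 6 were higher in HPDE and 1 was lower at a limma adjusted p under 0.05. Of all 12377 genes, 6935 were higher and 3434 lower. On the log2(FPKM + 1) scale, HPDE minus HPNE was 4.41 for TNFRSF10A, 2.71 for PMAIP1, 2.20 for BAK1 and 1.57 for BID. It was 0.72 for BCL2L1, 0.48 for TNFRSF10B and -1.85 for BBC3. TNFRSF10A had a mean of 0.269 FPKM in HPNE and passed the filter only through HPDE. Its call therefore follows from the filter and adds no support to these counts. The median difference of the 9 members was 0.72, beside 0.38 over all genes. Scaling by size factors moved the all-gene median by -0.31 and the share of called genes that were higher from 66.9% to 53.2%. MCL1 then changed sign, from 0.14 (adjusted p = 0.11) to -0.23 (adjusted p = 0.013), and TNFRSF10B was no longer called, at 0.12 (adjusted p = 0.28).

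**Figure D1:**
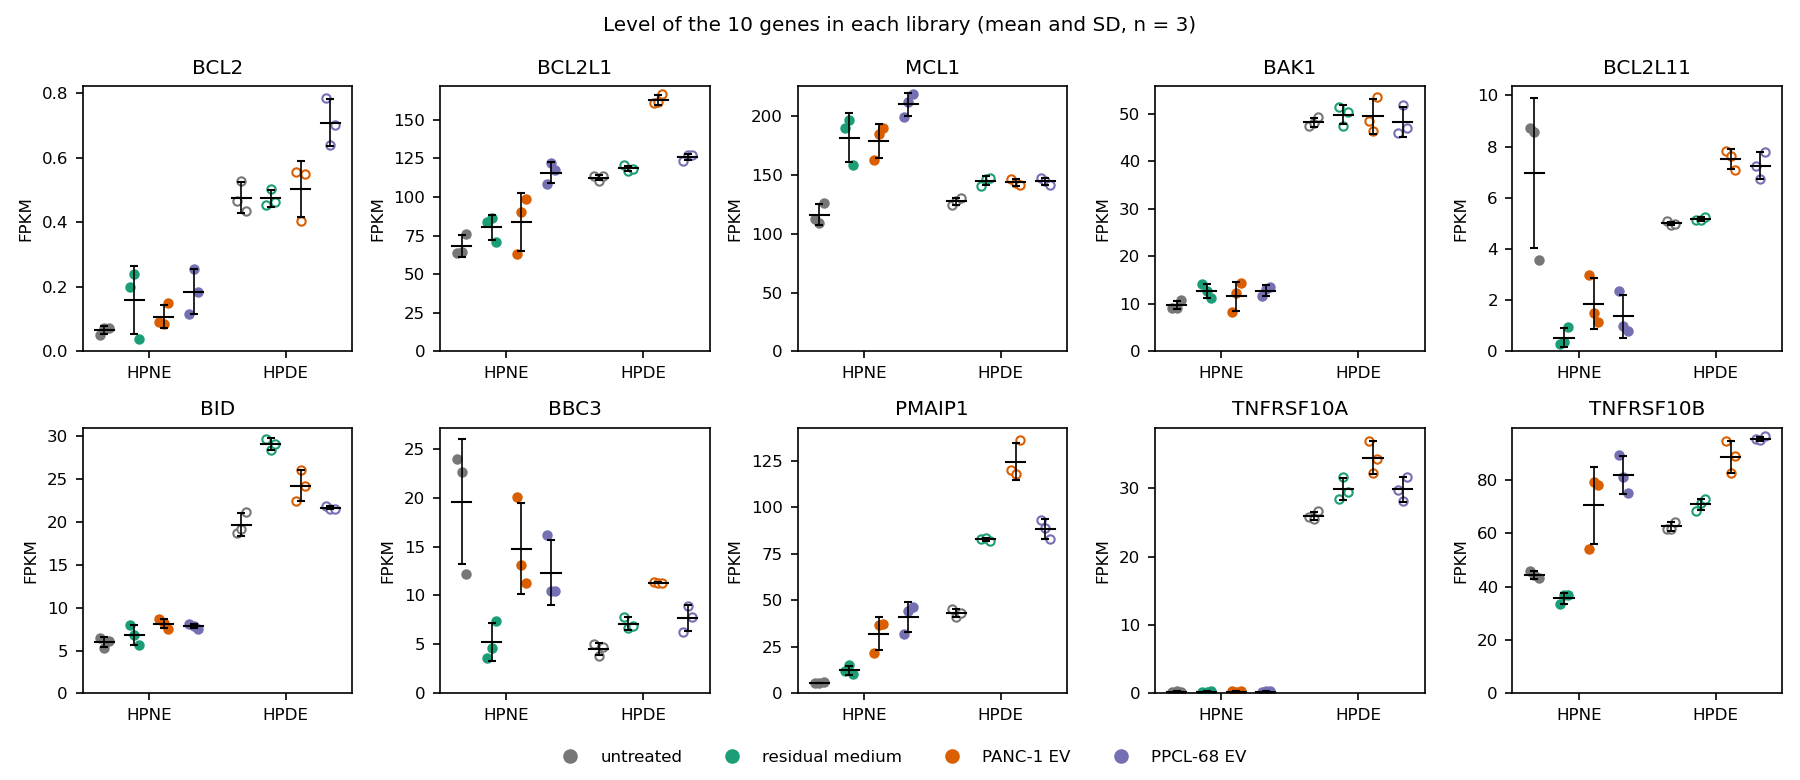
FPKM of each gene in each library (points; filled for HPNE, open for HPDE), with the group mean as a line and the SD of 3 libraries as a bar. TNFRSF10A lies at 0.145 to 0.363 FPKM in HPNE, and PMAIP1 has its lowest values in untreated HPNE and its highest, 118 to 136 FPKM, in HPDE with PANC-1 EVs.

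Within a line, the order of mean levels over its 12 libraries was MCL1 (172 ± 37.8 FPKM, SD), BCL2L1 (87.0 ± 20.8), TNFRSF10B (58.2 ± 20.8), PMAIP1 (22.8 ± 15.7), BBC3 (13.0 ± 6.58), BAK1 (11.7 ± 2.04), BID (7.19 ± 1.09), BCL2L11 (2.69 ± 2.96), TNFRSF10A (0.269 ± 0.0606) and BCL2 (0.130 ± 0.0741) in HPNE. In HPDE it was MCL1 (140 ± 8.13 FPKM), BCL2L1 (130 ± 20.55), PMAIP1 (84.7 ± 30.5), TNFRSF10B (79.5 ± 14.1), BAK1 (48.9 ± 2.39), TNFRSF10A (30.1 ± 3.47), BID (23.6 ± 3.80), BBC3 (7.66 ± 2.62), BCL2L11 (6.24 ± 1.24) and BCL2 (0.540 ± 0.115). Each SD here spans 4 treatments, and for many neighbours the intervals of mean ± SD overlap. In HPNE these are BCL2L1 and TNFRSF10B, TNFRSF10B and PMAIP1, PMAIP1 and BBC3, BBC3 and BAK1, and BCL2L11 and TNFRSF10A. In HPDE they are MCL1 and BCL2L1, BCL2L1 and PMAIP1, PMAIP1 and TNFRSF10B, TNFRSF10A and BID, and BBC3 and BCL2L11. BCL2, the founding member, fell under the expression filter in both lines, with 9 to 64 reads in each HPNE library and with 105 to 177 in those of HPDE.

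Each EV was next set against residual medium, and rose and fell here mean higher and lower than with residual medium. That is a difference between treatments, and it is not shown to be what EVs add. In HPNE, 8 members passed the filter, and 3 rose with PANC-1 EVs (BBC3, PMAIP1, TNFRSF10B) while none fell, where 13.9% of all 11503 genes tested rose and 10.3% fell. With PPCL-68 EVs 4 rose, those 3 and BCL2L1, and none fell, where 20.3% of genes rose and 19.7% fell. In HPDE, 9 members passed, and 6 rose with PANC-1 EVs (BCL2L1, BCL2L11, BBC3, PMAIP1, TNFRSF10A, TNFRSF10B) and BID fell, where 28.2% of 12223 genes rose and 35.1% fell. With PPCL-68 EVs 3 rose in HPDE (BCL2L1, BCL2L11, TNFRSF10B) and BID fell, where 31.3% of genes rose and 36.4% fell. The median log2 differences of the members tested were 0.56, 0.56, 0.32 and 0.09 in that order, beside 0.02, 0.00, -0.04 and -0.03 over all genes. With size factors the share of called genes that were higher moved from 57.4% to 42.0% for PANC-1 EVs in HPNE. The EV comparisons of a line share their residual-medium libraries, so their counts are not independent of each other. Without the 4 HPNE libraries that stand apart, 5 members were called with PANC-1 EVs, BCL2L1 and BCL2L11 being added, and 6 with PPCL-68 EVs, MCL1 and BCL2L11 being added. In that fit 6773 and 7531 genes were called in all, in the same order. Those libraries were picked by distance in these same values. Leaving them out keeps the closest pair of each HPNE group, which narrows the spread. Calls gained that way, here and below, follow in part from the choice and add no support.

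The negative control itself moved these genes. Residual medium against untreated cells raised MCL1 and PMAIP1 and lowered BCL2L11 and BBC3 in HPNE, where 18.7% of all genes rose and 25.2% fell. In HPDE it raised 6 members (MCL1, BID, BBC3, PMAIP1, TNFRSF10A, TNFRSF10B) and lowered none, where 9.93% of genes rose and 10.1% fell. Member medians were 0.19 in HPNE and 0.18 in HPDE, beside -0.05 and -0.01 over all genes. With size factors the all-gene median moved by 0.11 in HPNE, and the share of called genes that were higher from 42.6% to 61.5%. A difference from residual medium and a difference from untreated cells therefore answer different questions, and calls of both are given for the members tested. Differences of other pathway genes are from residual medium unless another comparison is named. Without the 4 HPNE libraries that stand apart, all 8 members tested in HPNE were called in this comparison. That fit called 8221 genes in all.

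**Figure D2:**
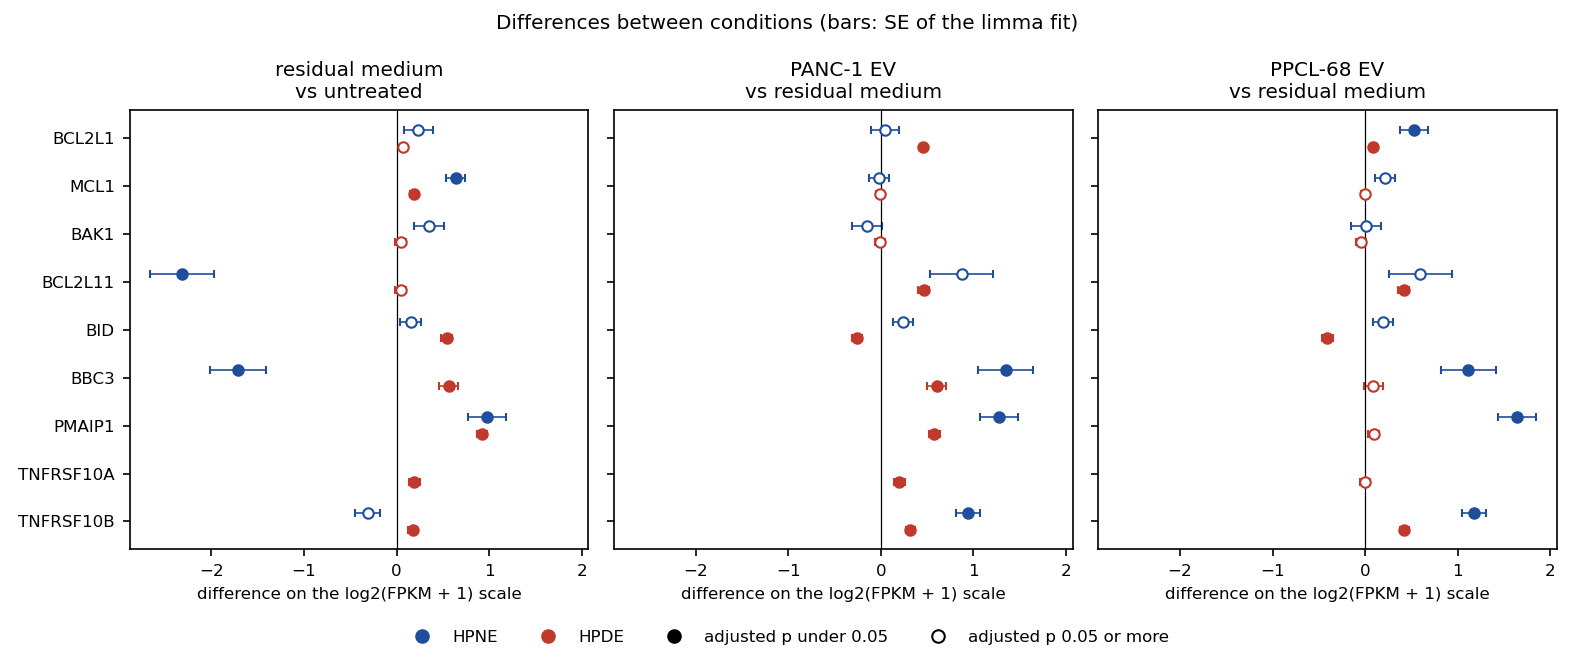
Differences on the log2(FPKM + 1) scale for each member that passed the filter, with the SE of the limma fit (filled points, adjusted p under 0.05). BCL2L11 and BBC3 fall by 2.32 and 1.72 in HPNE with residual medium, and with EVs BBC3, PMAIP1 and TNFRSF10B of HPNE lie to the right of 0.

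TNFRSF10B, the TRAIL receptor DR5, rose with both EVs in both lines. In HPNE it was at 46.1, 44.3 and 43.2 FPKM in untreated cells, 33.4, 36.9 and 36.8 with residual medium, 54.0, 79.4 and 78.0 with PANC-1 EVs and 89.4, 81.1 and 75.3 with PPCL-68 EVs. Every EV library lay above every untreated and every residual-medium library. The differences from residual medium were 0.94 for PANC-1 EVs (SE 0.13, limma adjusted p = 0.0010) and 1.17 for PPCL-68 EVs (SE 0.13, adjusted p = 0.00013) on the log2(FPKM + 1) scale. HPDE held 61.6, 61.8 and 64.4 FPKM of it untreated, 68.6, 71.3 and 72.8 with residual medium, 94.6, 82.6 and 89.1 with PANC-1 EVs and 95.2, 94.9 and 96.4 with PPCL-68 EVs. The groups with and without EVs did not overlap here either, and the differences from residual medium were 0.32 (SE 0.048, adjusted p = 4.4e-05) and 0.43 (SE 0.048, adjusted p = 2.0e-06). Residual medium alone gave -0.31 in HPNE (adjusted p = 0.076) and 0.18 in HPDE (adjusted p = 0.020). That HPDE call was lost when any of 3 single libraries was left out, with adjusted p of at most 0.076.

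TNFRSF10A, the other TRAIL receptor with a death domain, had 15 to 32 reads per library in HPNE and was not tested there. Its HPDE levels were 25.8, 25.6 and 26.6 FPKM untreated, 28.5, 31.7 and 29.5 with residual medium, 37.0, 32.2 and 34.3 with PANC-1 EVs and 29.7, 28.1 and 31.7 with PPCL-68 EVs. PANC-1 EV libraries lay above all residual-medium libraries, and PPCL-68 EV libraries overlapped them. The difference from residual medium was 0.20 with PANC-1 EVs (SE 0.058, limma adjusted p = 0.0080) and -0.00 with PPCL-68 EVs (adjusted p = 0.97). Residual medium against untreated gave 0.19 (adjusted p = 0.031), a call that was lost on leaving out any of 5 single libraries, with adjusted p of at most 0.11.

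PMAIP1 was higher with residual medium than in untreated cells of both lines. In HPNE it was higher with both EVs than with residual medium. In HPNE it was at 5.70, 5.65 and 5.87 FPKM untreated, 11.8, 15.01 and 10.4 with residual medium, 21.9, 37.0 and 37.2 with PANC-1 EVs and 31.8, 44.3 and 46.6 with PPCL-68 EVs. The 3 conditions untreated, residual medium and EV did not overlap. Residual medium exceeded untreated by 0.98 (SE 0.21, limma adjusted p = 0.0041), and EVs exceeded residual medium by 1.27 for PANC-1 (SE 0.21, adjusted p = 0.0021) and 1.64 for PPCL-68 (SE 0.21, adjusted p = 0.00022). The HPDE levels were 45.3, 41.1 and 43.3 FPKM untreated, 83.0, 83.5 and 82.0 with residual medium, 119.7, 118 and 136 with PANC-1 EVs and 93.3, 89.0 and 82.8 with PPCL-68 EVs. Here the PPCL-68 EV libraries overlapped those of residual medium. The differences were 0.92 for residual medium against untreated (SE 0.058, adjusted p = 6.4e-08), 0.58 for PANC-1 EVs against residual medium (SE 0.058, adjusted p = 9.9e-07) and 0.09 for PPCL-68 EVs (SE 0.058, adjusted p = 0.18).

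BBC3 fell with residual medium in HPNE and was higher with EVs than with residual medium. Its HPNE values were 23.9, 22.6 and 12.2 FPKM untreated, 3.64, 4.63 and 7.41 with residual medium, 20.1, 13.1 and 11.2 with PANC-1 EVs and 16.1, 10.4 and 10.4 with PPCL-68 EVs. EV libraries overlapped untreated libraries and lay above all residual-medium libraries. The differences were -1.72 for residual medium against untreated (SE 0.30, limma adjusted p = 0.0016), 1.35 for PANC-1 EVs against residual medium (SE 0.30, adjusted p = 0.0097) and 1.12 for PPCL-68 EVs (SE 0.30, adjusted p = 0.013). The last call was lost without residual medium replicate 1, at 0.93 (adjusted p = 0.057). EVs against untreated gave -0.37 and -0.60 (adjusted p = 0.40 and 0.13), and without the 4 libraries that stand apart -0.88 and -1.08 (adjusted p = 2.8e-05 and 4.4e-06). In HPDE, BBC3 was at 4.995, 3.84 and 4.70 FPKM untreated, 7.85, 6.67 and 6.85 with residual medium, 11.4, 11.3 and 11.3 with PANC-1 EVs and 6.31, 8.96 and 7.82 with PPCL-68 EVs. There residual medium exceeded untreated by 0.56 (SE 0.10, limma adjusted p = 0.0018), and PANC-1 EVs exceeded residual medium by 0.60 (SE 0.10, adjusted p = 0.00013). PPCL-68 EV libraries overlapped residual medium, with a difference of 0.09 (adjusted p = 0.45).

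BCL2L11 encodes BIM, a BH3-only protein that binds all pro-survival members. In HPNE it was at 8.72, 8.57 and 3.58 FPKM untreated, 0.298, 0.350 and 0.970 with residual medium, 2.99, 1.48 and 1.14 with PANC-1 EVs and 2.35, 0.974 and 0.806 with PPCL-68 EVs. All untreated libraries lay above all others, and those with PANC-1 EVs lay above residual medium. It fell by 2.32 with residual medium (SE 0.34, limma adjusted p = 0.00067) and by 1.44 and 1.72 with PANC-1 and PPCL-68 EVs against untreated (adjusted p = 0.014 and 0.0023). Against residual medium the EV differences were 0.87 and 0.60 (SE 0.34, adjusted p = 0.084 and 0.19), and both were called without the 4 libraries that stand apart, at 0.80 and 0.51 (adjusted p = 0.00012 and 0.0017). The PANC-1 EV fall from untreated was lost on leaving out any of 4 single libraries, with adjusted p of at most 0.068. In HPDE, BCL2L11 was at 5.08, 4.94 and 4.99 FPKM untreated, 5.13, 5.15 and 5.27 with residual medium, 7.84, 7.62 and 7.10 with PANC-1 EVs and 7.26, 6.73 and 7.79 with PPCL-68 EVs. Every EV library lay above every other library of that line. EVs exceeded residual medium by 0.46 and 0.42 (SE 0.058, adjusted p = 8.9e-06 and 1.8e-05), and residual medium differed from untreated by 0.04 (adjusted p = 0.65).

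BID, which caspase-8 cleaves to carry the death-receptor signal to mitochondria, moved differently in the lines. In HPNE it was at 6.50, 5.34 and 6.099 FPKM untreated, 7.99, 6.77 and 5.63 with residual medium, 8.64, 8.24 and 7.55 with PANC-1 EVs and 8.06, 7.88 and 7.57 with PPCL-68 EVs. EV libraries overlapped residual medium, with differences of 0.24 and 0.19 (limma adjusted p = 0.13 and 0.19). HPDE libraries gave 18.7, 19.2 and 21.2 FPKM untreated, 29.7, 28.4 and 29.1 with residual medium, 22.5, 26.0 and 24.2 with PANC-1 EVs and 21.8, 21.5 and 21.5 with PPCL-68 EVs. All residual-medium libraries lay above all others. BID rose by 0.54 with residual medium (SE 0.056, adjusted p = 1.2e-05), and EVs were lower than residual medium (-0.25 and -0.41, SE 0.056, adjusted p = 0.0012 and 1.5e-05).

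The upstream sequence of the 3 BH3-only genes whose level changed most is shown as RefSeq gives it for GRCh38.p14, since those transcripts moved with residual medium or EVs. RefSeq windows were found for 7 of the 10 members, and none for MCL1, TNFRSF10A or TNFRSF10B. Each line runs 5′ to 3′ on the strand of the gene, from base -250 before the annotated start to the last base before the first exon that GENCODE annotates there. Capitals mark GC boxes (GGGCGG or, on the other strand, CCGCCC) and the core of the cyclic AMP response element (TGACGT or ACGTCA).
PMAIP1 (chr18:59899746-59899947, plus strand, 202 bases): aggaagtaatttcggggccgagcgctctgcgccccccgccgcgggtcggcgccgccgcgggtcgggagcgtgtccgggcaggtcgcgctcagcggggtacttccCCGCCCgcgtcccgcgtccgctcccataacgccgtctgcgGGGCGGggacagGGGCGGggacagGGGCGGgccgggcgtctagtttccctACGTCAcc
BBC3 (chr19:47232767-47232917, minus strand, 151 bases): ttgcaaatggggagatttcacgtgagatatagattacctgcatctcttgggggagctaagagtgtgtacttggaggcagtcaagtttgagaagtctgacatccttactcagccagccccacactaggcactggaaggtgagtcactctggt
BCL2L11 (chr2:111120664-111120913, plus strand, 250 bases): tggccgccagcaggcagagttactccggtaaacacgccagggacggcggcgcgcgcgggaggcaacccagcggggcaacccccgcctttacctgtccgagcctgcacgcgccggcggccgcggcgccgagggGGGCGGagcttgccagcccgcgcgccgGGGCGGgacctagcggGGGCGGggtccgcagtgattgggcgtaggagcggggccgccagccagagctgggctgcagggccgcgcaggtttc

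The window of PMAIP1 held 4 GC boxes and 1 response element core, at -56 to -51, and that of BCL2L11 held 3 GC boxes and no such core. The BBC3 window held neither. Over the 250 bases before the start, GC content was 72.8% for PMAIP1, 76.8% for BCL2L11 and 49.2% for BBC3, beside a median of 58.0% over 35116 RefSeq windows. Of those windows 42.6% held a GC box on either strand, 7.10% the core, 1.65% the full response element TGACGTCA and 3.14% the element TGATGNAA, which C/EBP and ATF factors bind. The last 2 motifs, which the core can overlap, were found in none of the windows of the 7 members. A match says only that these letters are present, and no match says only that they are not in this window; other start sites of the genes were not searched.

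MCL1, the short-lived pro-survival protein that NOXA binds, rose with residual medium in both lines and did not pass the test between EVs and residual medium in either. In HPNE it was at 113, 109 and 126 FPKM untreated, 190.1, 197 and 158 with residual medium, 162, 185 and 189.6 with PANC-1 EVs and 199, 212 and 219 with PPCL-68 EVs. All untreated libraries lay below all others. Residual medium exceeded untreated by 0.64 (SE 0.11, limma adjusted p = 0.0014), and the EV differences from residual medium were -0.02 and 0.21 (adjusted p = 0.92 and 0.14). The second was called without the 4 libraries that stand apart, at 0.15 (adjusted p = 0.012). Untreated HPDE gave 124, 128 and 131 FPKM, and all 9 other libraries lay at 141 to 147. Residual medium exceeded untreated by 0.18 (SE 0.039, adjusted p = 0.0052), and EVs differed from residual medium by -0.01 and -0.00 (adjusted p = 0.77 and 0.93).

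BCL2L1 encodes BCL-XL, the other main pro-survival protein of these cells. In HPNE it was at 63.7, 64.3 and 76.2 FPKM untreated, 83.9, 86.1 and 70.8 with residual medium, 62.8, 90.3 and 98.7 with PANC-1 EVs and 108, 122 and 117 with PPCL-68 EVs. PPCL-68 EV libraries lay above all other HPNE libraries, while PANC-1 EV libraries spanned those of untreated cells and residual medium. The PPCL-68 EV difference from residual medium was 0.53 (SE 0.15, limma adjusted p = 0.019), and it was lost without PPCL-68 EV replicate 2 (0.49, adjusted p = 0.063) or replicate 3 (0.52, adjusted p = 0.053). Levels in HPDE were 114, 110.4 and 114 FPKM untreated, 121, 117 and 118 with residual medium, 161, 161 and 167 with PANC-1 EVs and 124, 127 and 127 with PPCL-68 EVs. The 3 PANC-1 EV libraries stood above all others of that line, by 0.46 over residual medium (SE 0.037, adjusted p = 1.0e-07). The PPCL-68 EV difference of 0.09 (SE 0.037, adjusted p = 0.047) was lost on leaving out any of 9 single libraries (adjusted p of at most 0.12) and under the replicate block (adjusted p = 0.080).

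BCL2 was at 0.0397 to 0.256 FPKM in HPNE, where the residual-medium libraries (0.200, 0.239 and 0.0397) overlapped every other group. Levels in HPDE reached 0.466, 0.527 and 0.434 FPKM untreated, 0.454, 0.503 and 0.464 with residual medium, 0.555, 0.403 and 0.550 with PANC-1 EVs and 0.785, 0.639 and 0.701 with PPCL-68 EVs. The PPCL-68 EV libraries lay above all others, by 0.21 over residual medium when no expression filter was applied (adjusted p = 0.023), and the gene was not tested otherwise. BAK1 was at 8.28 to 14.4 FPKM in HPNE and 46.0 to 53.6 FPKM in HPDE over all treatments. It did not pass the limma test in any comparison within a line, with differences between -0.16 and 0.37. Residual medium and PPCL-68 EVs against untreated HPNE came nearest (0.35 and 0.37, adjusted p = 0.093 and 0.087), and both were called without the 4 libraries that stand apart, at 0.50 (adjusted p = 0.00026 and 0.00028).

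Against untreated cells, EVs moved more members than against residual medium. In HPNE, PANC-1 EVs raised 4 (MCL1, BID, PMAIP1, TNFRSF10B) and lowered BCL2L11, where 9.61% of genes rose and 11.5% fell, and PPCL-68 EVs raised those 4 and BCL2L1 and lowered BCL2L11, where 18.7% rose and 23.8% fell. With size factors the share of called genes that were higher moved from 45.5% to 58.3% and from 44.0% to 55.2%. The largest rise was that of PMAIP1, by 2.25 and 2.62 (SE 0.21, limma adjusted p = 7.5e-05 and 7.8e-06). In HPDE each EV raised 8 of 9 members, all but BAK1, and lowered none, where 26.3% and 30.1% of genes rose and 34.4% and 36.1% fell. PMAIP1 again rose most, by 1.502 and 1.01 (SE 0.058, adjusted p = 3.7e-11 and 1.6e-09). The count of 5 members with PANC-1 EVs in HPNE fell to 3 without untreated replicate 2, PANC-1 EV replicate 2 or PANC-1 EV replicate 3. It rose to 8 without the 4 libraries that stand apart, a fit that called 7192 genes in all. The BID call of each EV in HPNE was lost on leaving out any of 4 single libraries, and that of PPCL-68 EVs in HPDE (0.13, adjusted p = 0.048) with any of 8 libraries left out and with the replicate block (adjusted p = 0.062).

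The EVs were also compared with each other. In HPDE, PANC-1 EVs gave higher levels than PPCL-68 EVs for 5 of 9 members and lower levels for none, where 50.1% of all genes were called. Of all 12223 genes, 3084 were higher and 3039 lower. The number of members called therefore does not set them apart. The differences were 0.51 for BBC3, 0.49 for PMAIP1, 0.37 for BCL2L1, 0.20 for TNFRSF10A and 0.15 for BID (limma adjusted p = 0.00081, 1.1e-05, 1.9e-06, 0.010 and 0.034). By limma, the BID call was lost on leaving out any of 5 single libraries (adjusted p of at most 0.16) and that of TNFRSF10A without PANC-1 EV replicate 1 or PPCL-68 EV replicate 2 (adjusted p of at most 0.053). The count fell to 3 without PPCL-68 EV replicate 2. In HPNE none of 8 members was called by limma, where 5.47% of genes were, with 1 member (BCL2L1, -0.48) at an unadjusted p under 0.05 and none by limma voom. Same-numbered EV libraries of HPNE varied together, but the labels state no pairing and replicate 1 stands apart in both groups. With the number as a block over the 6 libraries, limma called 2 members: BCL2L1 at -0.48 (adjusted p = 0.036) and PMAIP1 at -0.37 (adjusted p = 0.031). This block called 1908 genes in place of 629. Without the 4 libraries that stand apart 3 were called, those 2 and MCL1, each lower with PANC-1 EVs. That fit called 4186 genes in all.

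Differences between the lines were tested as the effect in HPDE minus that in HPNE. For PANC-1 EVs against residual medium, 3 of 9 members differed (BID, TNFRSF10B, PMAIP1), where 21.2% of genes did, and for PPCL-68 EVs 4 differed (those and BBC3), where 25.7% of genes did. All of these effects were lower in HPDE. Of all 12377 genes, 1551 were lower and 1071 higher for PANC-1 EVs, and 1683 and 1500 for PPCL-68 EVs. With size factors the share of called genes that were higher in HPDE moved from 40.8% to 52.5% for PANC-1 EVs. TNFRSF10B, for example, gave 0.94 and 1.17 in HPNE and 0.32 and 0.43 in HPDE, differences of -0.62 and -0.75 (SE 0.14, limma adjusted p = 0.0043 and 0.00070). PMAIP1 differed by -0.70 (SE 0.23, adjusted p = 0.033) and -1.55 (SE 0.23, adjusted p = 4.2e-05), and the first was lost on leaving out any of 9 single libraries, with adjusted p of at most 0.090. For residual medium against untreated, 5 members differed, where 38.1% of genes did: BCL2L11 by 2.36, BBC3 by 2.28, TNFRSF10B by 0.49, BID by 0.39 and MCL1 by -0.45. With size factors the share that was higher moved from 55.0% to 44.2%. Thus BBC3 fell in HPNE and rose in HPDE with residual medium, and the labels do not say whether both lines were given the same batch of it.

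Since FPKM is a level per length, the members can be set against each other within a library. The summed FPKM of the 4 BH3-only genes per summed FPKM of the 3 pro-survival genes was 0.254, 0.242 and 0.137 in untreated HPNE, 0.0864, 0.0945 and 0.107 with residual medium, 0.238, 0.217 and 0.198 with PANC-1 EVs and 0.190, 0.190 and 0.195 with PPCL-68 EVs. Residual medium gave the lowest ratios of that line, and EV libraries lay between untreated replicates. The HPDE ratio was 0.311, 0.289 and 0.303 untreated, 0.480, 0.467 and 0.463 with residual medium, 0.524, 0.534 and 0.579 with PANC-1 EVs and 0.474, 0.463 and 0.446 with PPCL-68 EVs, so that untreated libraries were the lowest and PANC-1 EV libraries the highest. PMAIP1 per MCL1 was 0.0496 ± 0.0027 (SD, n = 3) in untreated HPNE, 0.0681 ± 0.0074 with residual medium, 0.177 ± 0.037 with PANC-1 EVs and 0.194 ± 0.030 with PPCL-68 EVs. That ratio in HPDE was 0.339 ± 0.022, 0.571 ± 0.017, 0.868 ± 0.082 and 0.611 ± 0.023. MCL1 made up 62.3 to 72.1% of the pro-survival FPKM of HPNE and 45.8 to 55.5% of that of HPDE. These ratios are descriptions with no test, and they compare transcripts, not proteins.

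**Figure D3:**
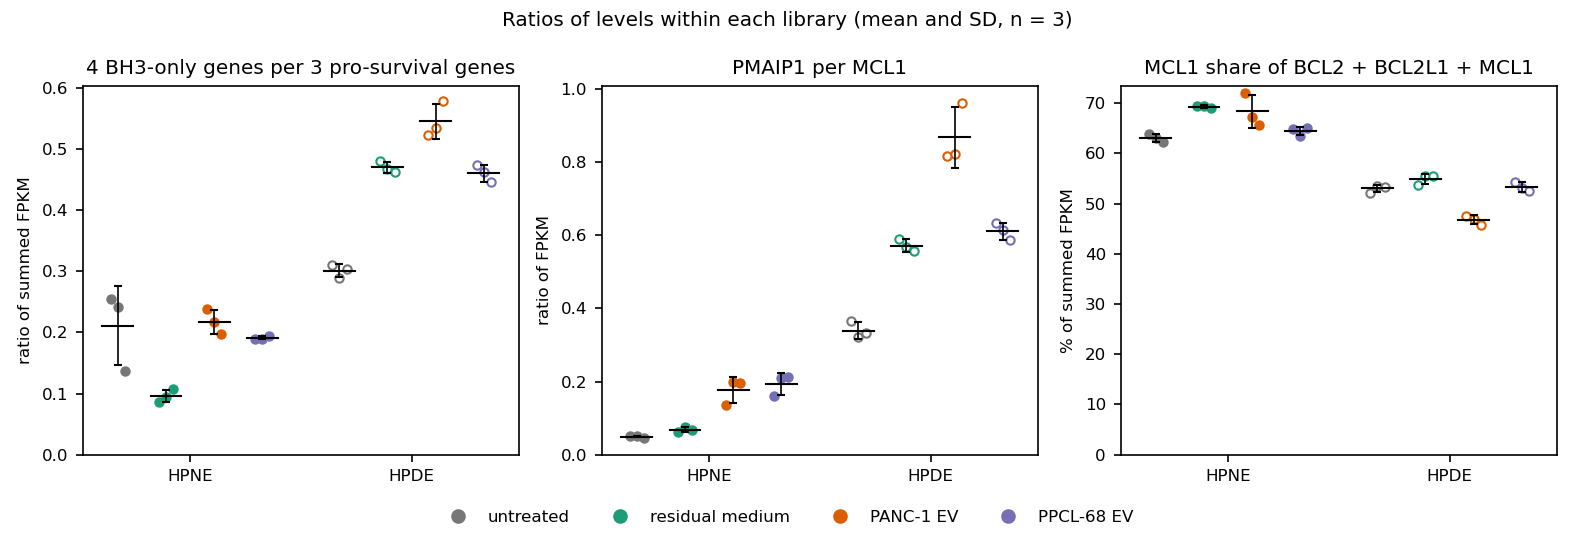
Ratios of FPKM within each library (points; filled for HPNE, open for HPDE), with group means and SD of 3 libraries. PMAIP1 per MCL1 runs from 0.0465 in untreated HPNE to 0.963 in HPDE with PANC-1 EVs.

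Some pairs of members varied together. Over the 12 libraries of HPNE, log2(FPKM + 1) of BCL2L11 and BBC3 had a Pearson r of 0.88, that of MCL1 and BCL2L11 -0.87, that of MCL1 and PMAIP1 0.87 and that of PMAIP1 and TNFRSF10B 0.82. In HPDE these were 0.76, 0.54, 0.83 and 0.79. The points share the treatments, and in HPNE the libraries that stand apart, so the values are descriptions. With each line's mean removed, the genes most like a member over the 24 libraries among 10483 were ABCA1 (0.96), UBE2H (0.95) and TMEM80 (0.94) for BBC3, CLDN1 (0.95), ITPRIP (0.93) and ETS2 (0.93) for PMAIP1, and RP11-37B2.1 (0.96), RSL24D1 (0.96) and ZNF697 (0.95) for TNFRSF10B. They were CAMKK1 (0.97), RRAGB (0.96) and ADCK3 (0.96) for BCL2L11, NUDCD1 (0.96), SERPINB2 (0.95) and IL8 (0.95) for MCL1, and HERC6 (0.93), GART (0.91) and H2AFJ (0.91) for BCL2L1. BAK1 was most like CYCS (0.87), MYO1C (0.87) and SNRPB (0.87), and BID like NRIP1 (0.83), BCL2A1 (0.81) and ELK3 (0.79). These values pool the lines, and some hold mainly in HPNE. For the BAK1 genes r was 0.914, 0.900 and 0.904 in HPNE but 0.318, 0.425 and 0.537 in HPDE. Others held in both, such as UBE2H with BBC3 (0.960 in HPNE, 0.930 in HPDE).

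**Figure D4:**
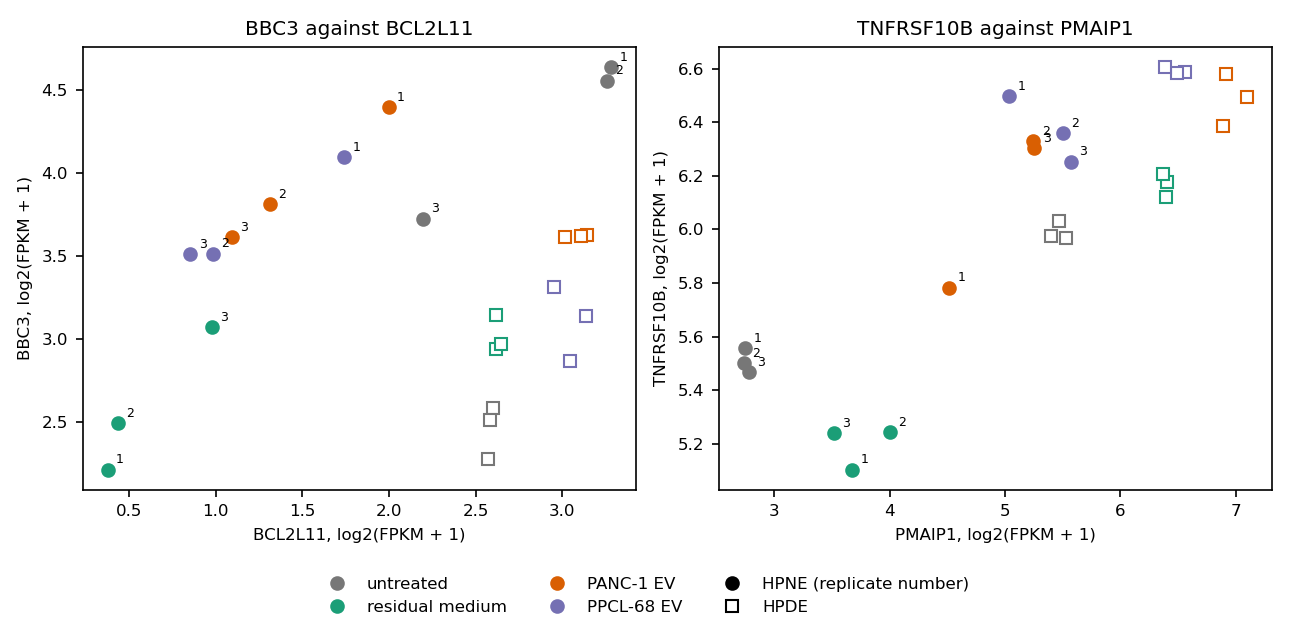
BBC3 against BCL2L11 and TNFRSF10B against PMAIP1 in log2(FPKM + 1), 1 point per library (circles, HPNE with replicate numbers; squares, HPDE). In HPNE the untreated libraries are high for BBC3 and BCL2L11 and the residual-medium libraries low, and untreated replicate 3 and residual medium replicate 3 lie nearer to the EV libraries than the other replicates of those groups do.

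Another 43 genes of these routes were listed as a setting for the members. Against residual medium, PANC-1 EVs raised 5 and lowered 8 of 34 tested in HPNE, with a median of -0.04, and PPCL-68 EVs raised 7 and lowered 9, with a median of -0.03. In HPDE the counts of 36 tested were 10 raised and 16 lowered (median -0.06) and 10 raised and 20 lowered (median -0.23). Residual medium against untreated raised 13 and lowered 6 in HPNE and raised 10 and lowered 2 in HPDE. The shares of all genes that rose and fell in each comparison are given above.

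TRAIL itself (TNFSF10) reached no more than 6 reads in HPNE. In HPDE it was at 14.5 ± 2.4 FPKM untreated (SD, n = 3), 17.5 ± 1.2 with residual medium, 20.6 ± 2.5 with PANC-1 EVs and 9.70 ± 0.90 with PPCL-68 EVs, a fall of 0.79 from residual medium with PPCL-68 EVs (-0.79, limma adjusted p = 9.5e-06). TNFRSF10D, a decoy receptor that binds TRAIL without a complete death domain, was lower with both EVs than with residual medium in both lines. It was at 39.8, 45.0 and 39.0 FPKM with residual medium in HPNE, 18.4, 20.6 and 21.5 with PANC-1 EVs and 27.4, 25.2 and 26.2 with PPCL-68 EVs (-0.997 and -0.63, adjusted p = 0.00020 and 0.00065). In HPDE it was at 9.22, 8.67 and 9.06, at 4.31, 3.51 and 3.93 and at 6.33, 6.76 and 6.99 FPKM in the same order (-1.03 and -0.38, adjusted p = 7.6e-09 and 0.00011). Thus TNFRSF10B and TNFRSF10D moved in opposite directions with both EVs. TNFRSF10C, another decoy, stayed at 0.318 to 1.63 FPKM and was not tested. Of 5 genes tested in the list of TRAIL, decoys and other death receptors, 1 rose and 2 fell with PANC-1 EVs in HPNE, 0 and 3 with PPCL-68 EVs, and in HPDE 0 rose and 3 or 5 fell. TNFRSF21 (DR6) was the one that rose, by 1.07 in HPNE (limma adjusted p = 0.0048). Residual medium itself lowered it by 2.31 from untreated (adjusted p = 3.6e-05). TNFRSF11B (osteoprotegerin, a soluble TRAIL receptor) fell by 1.15 with PPCL-68 EVs in HPNE (adjusted p = 0.00077).

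In the signalling complex under the receptors, FADD, the adaptor, was lower with both EVs than with residual medium in both lines (-0.59 and -0.42 in HPNE, -0.57 and -0.43 in HPDE, limma adjusted p of at most 0.0101). Untreated HPNE held FADD at 5.21, 5.23 and 5.80 FPKM, which PPCL-68 EV libraries (5.04, 5.73 and 6.12) overlapped. CASP8 did not pass in HPNE (-0.11 and -0.11) and went up with PANC-1 EVs and down with PPCL-68 EVs in HPDE (0.23 and -0.39, adjusted p = 0.0014 and 1.5e-05). CFLAR, which encodes the caspase-8 inhibitor c-FLIP, did the same in HPDE: it was at 22.5, 22.6 and 22.5 FPKM with residual medium, 31.0, 29.9 and 30.1 with PANC-1 EVs and 16.6, 17.2 and 17.4 with PPCL-68 EVs (0.41 and -0.38, adjusted p = 4.9e-07 and 6.8e-07). Untreated HPDE held CFLAR at 14.7, 14.8 and 14.5 FPKM, below all PPCL-68 EV libraries. RIPK1, a kinase of that complex, rose with PPCL-68 EVs (0.43 in HPNE, 0.31 in HPDE). Counts for the 6 genes of this list were 0 up and 1 down, then 1 and 1 of 5 tested in HPNE, and 2 and 3, then 1 and 4 of 6 in HPDE.

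Among the remaining BCL2 relatives, BAX, the second effector, had group means of 52.3 to 69.3 FPKM in HPDE and fell with both EVs there (-0.40 and -0.36, limma adjusted p = 1.7e-05 and 3.3e-05), while in HPNE it gave 0.06 and 0.24 and did not pass. BOK, another effector, fell with both EVs in both lines (-0.46 and -0.89 in HPNE, -0.42 and -0.84 in HPDE). BCL2A1, an inducible pro-survival gene, rose by 1.79 with residual medium in HPDE (adjusted p = 4.4e-08) and was lower with EVs (-0.38 and -0.64). BIK, a BH3-only gene with at most 3 reads per HPNE library, rose by 0.92 in HPDE with residual medium and fell by 0.47 with PPCL-68 EVs. Downstream, of 11 tested genes of the apoptosome, the caspases and their inhibitors, 0 rose and 3 fell, then 3 and 3, in HPNE, and 2 and 6, then 2 and 5, in HPDE. BIRC5 (survivin, a gene also tied to cell division) fell in all 4 (-1.16, -1.52, -0.61 and -0.90), beside the fall of the summed proliferation markers with EVs. BIRC3, an inhibitor that NF-kappa-B switches on, rose by 1.48 with residual medium in HPNE and by 0.63 in HPDE, and with EVs over residual medium by 1.11 in HPNE (PPCL-68, adjusted p = 0.029) and 0.73 in HPDE (PANC-1, adjusted p = 3.6e-06).

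The transcription factors that are known to act on the members included the genes with the largest differences. DDIT3 was at 3.91, 4.43 and 10.3 FPKM with residual medium in HPNE, 30.3, 28.5 and 27.7 with PANC-1 EVs and 42.0, 25.9 and 20.2 with PPCL-68 EVs. In HPDE it was at 6.03, 7.16 and 8.99, at 50.5, 52.0 and 53.2 and at 37.9, 38.6 and 38.1 FPKM in the same order. The groups did not overlap, and the differences were 2.15 and 2.12 in HPNE, beside 2.67 and 2.24 for HPDE (limma adjusted p = 0.0019, 0.00091, 1.8e-11 and 6.1e-11). ATF4 was higher in HPNE by 0.63 and 0.79 (adjusted p = 0.044 and 0.011), and HPDE gave 0.48 and 0.56 (adjusted p = 1.9e-07 and 2.1e-08). ATF3 gave 1.63 and 2.31 in HPNE, beside 1.20 and 1.18 in HPDE, all called. Of the 8 factors, 4 rose and 1 fell, then 3 and 1, in HPNE, and 5 and 1, then 6 and 1, in HPDE. E2F1, tied to cell division, fell by 1.51 with PPCL-68 EVs in HPNE and by 0.87 and 1.48 in HPDE. In residual medium against untreated HPNE, DDIT3 and ATF4 were lower, by 0.93 and 0.58 (adjusted p = 0.045 and 0.039), and in HPDE they gave -0.02 and -0.00. These lists describe where the members' partners stood; none of these factors was tested as a cause of a member's change.

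**Figure D5:**
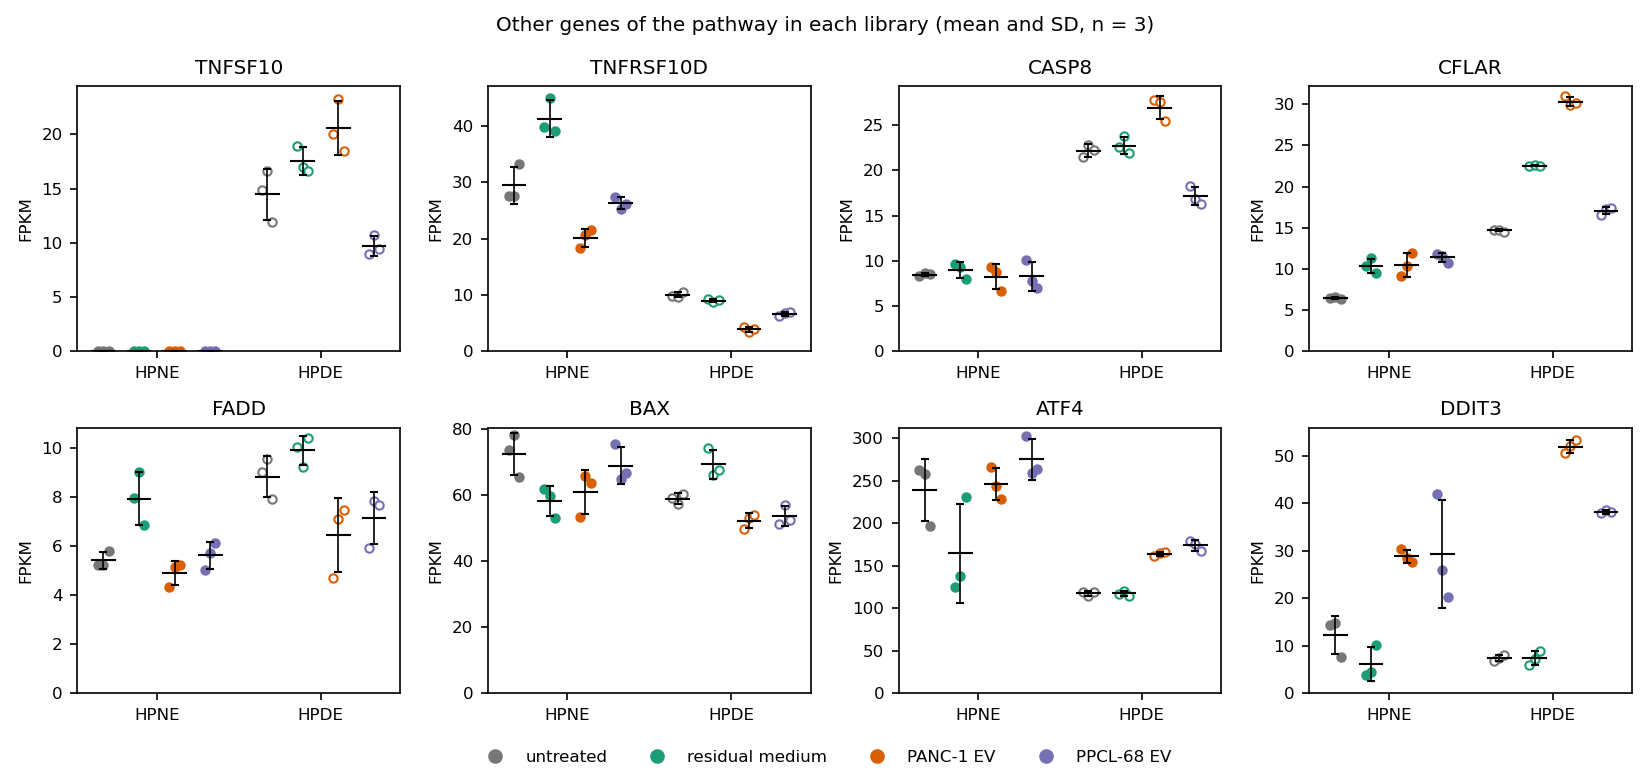
FPKM of 8 other genes of the pathway in each library (points; filled for HPNE, open for HPDE), with group means and SD of 3 libraries. DDIT3 lies at 20.2 to 53.2 FPKM in all EV libraries and at 3.91 to 14.8 in all others, and TNFRSF10D is lower with EVs than with residual medium in both lines.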

How the data were processed

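RNA-seq libraries of 24 samples (8 groups of 3, taken from the sample labels) were summarised by the authors, who deposited 1 FPKM value per gene and library with gene position and length on hg19, per the file headers. The submitters' processing notes name CASAVA, STAR, HTSeq, DESeq2 and hg19, with no versions or roles. FPKM times gene length gave whole reads for 100.0% of values (tolerance 0.01), from which the read numbers were taken. FPKM scales by the library total, so a few abundant genes can lower all others: the 10 most abundant took 14.5 to 18.3% in HPNE and 4.33 to 5.21% in HPDE.

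Differences were fitted with limma 3.58.1 in R 4.3.3 (limma-trend on log2(FPKM + 1), pseudocount 1), on the 12 libraries of a line (8 residual degrees of freedom) or all 24 (16) for line contrasts, over genes with a mean of at least 1 FPKM. Benjamini-Hochberg adjustment ran over all genes tested, with a threshold of 0.05. Fold changes of low genes are understated on this scale. The fit was tested on simulated data. The p-values measure the spread between libraries of 2 lines, and nothing in the labels says how the triplicate cultures were separated.

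The 10 members are all named. Other pathway genes were given values for a fixed set of 8 and for the gene of each list with the largest called difference. The members and lists were chosen with earlier results of these data known. Same-numbered samples varied together between 2 groups only, and the labels state no pairing. Deviations of same-numbered HPNE libraries with PANC-1 and PPCL-68 EVs correlated at 0.292 to 0.565, and replicate 1 stands apart in both groups. Each of the other 11 pairs of groups had a same-numbered pair below 0.1. Alternatives were a pseudocount of 0.1, no expression filter, median-of-ratios size factors, only the libraries compared, the replicate block, each library left out, and the 4 distinct HPNE libraries left out. limma voom on the recovered reads with library totals, and the block within the 6 HPNE EV libraries, were added after the data were seen. Promoter letters came from the RefSeq table of GRCh38.p14, and the other coordinates are hg19. Figures used Python 3.11.15 and matplotlib 3.10.9.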

Additional observations from a re-analysis of the deposited data

Results flagged for a closer look

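For 12 results the effect of a treatment differed between the lines by a limma test of the difference itself (HPDE minus HPNE on the log2(FPKM + 1) scale, adjusted over all 12377 genes). For PANC-1 EVs against residual medium these were BID at -0.49 (adjusted p = 0.0079), TNFRSF10B at -0.62 (adjusted p = 0.0043) and PMAIP1 at -0.70 (adjusted p = 0.033). With PPCL-68 EVs they were BID at -0.60 (adjusted p = 0.0014), BBC3 at -1.03 (adjusted p = 0.031), TNFRSF10B at -0.75 (adjusted p = 0.00070) and PMAIP1 at -1.55 (adjusted p = 4.2e-05). The limma BBC3 call was lost on leaving out any of 6 single libraries, with adjusted p of at most 0.089. For residual medium against untreated they were BID at 0.39 (adjusted p = 0.019), BBC3 at 2.28 (adjusted p = 6.4e-05), TNFRSF10B at 0.49 (adjusted p = 0.012), MCL1 at -0.45 (adjusted p = 0.0038) and BCL2L11 at 2.36 (adjusted p = 0.00010). That limma BID call was lost without HPNE untreated replicate 1, at 0.33 (adjusted p = 0.059). The EV and residual-medium contrasts share the residual-medium libraries of each line, so a high or low residual value enters both with opposite sign.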

How the results depend on the processing

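Values are log2 differences or counts, and no cause of a change was tested unless named. Leaving out the 4 distinct HPNE libraries gave 5 members and 6773 genes for PANC-1 EVs against residual medium in HPNE, 7531 genes for PPCL-68 EVs, 8 members and 8221 genes for residual medium against untreated, 8 members and 7192 genes for PANC-1 EVs against untreated, 7976 genes for PPCL-68 EVs against untreated and 3 members and 4186 genes between the EVs. For the line differences it gave 6 members and 5798 genes (PANC-1 EVs), 5685 genes (PPCL-68 EVs) and 8 members and 7678 genes (residual medium). As those libraries were picked by distance in these same values, the gain in calls follows in part from the choice. TNFRSF10B between the EVs in HPNE became 0.011 and the PPCL-68 line difference of TNFRSF10A -0.082. With only the libraries compared, 1436 genes (PANC-1 EVs against residual medium) and 323 (between EVs) were called in HPNE. With no filter, which adds genes to the adjustment, 335 were called between EVs in HPNE and 1527 for residual medium in HPDE, and 9 member calls were lost.

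With size factors the sign turned for BCL2L1 (-0.020, HPNE PANC-1 EVs against residual medium), BAK1 (-0.025, HPNE PPCL-68 EVs), MCL1 and BAK1 (0.020 and 0.023, HPDE PANC-1 EVs), MCL1 and TNFRSF10A (0.026 and 0.027, HPDE PPCL-68 EVs), BAK1 (0.043, HPDE PPCL-68 EVs against untreated) and MCL1 (-0.23, untreated lines). Under limma voom on recovered reads BAK1 became 0.0012 for HPDE PPCL-68 EVs against untreated, and 2 calls with those EVs were lost, BCL2L1 against residual medium and BID against untreated (adjusted p = 0.062 and 0.061). Size factors moved 53 of 80 group levels by 1 SD or more. The pseudocount of 0.1 gained the BCL2L11 call for HPNE PANC-1 EVs (1.66, adjusted p = 0.041 by limma). limma voom with TMM factors was not run.

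The replicate block over 12 or 24 libraries changed 2 member calls, BCL2L1 and BID in HPDE with PPCL-68 EVs (limma adjusted p = 0.080 and 0.062). The block over the 6 HPNE EV libraries alone gave 2 members and 1908 genes between EVs.

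Leaving out 1 library gave these ranges. Genes called in HPNE were 1348 to 4444 (PANC-1 EVs against residual medium), 3000 to 6067 (residual medium), 1043 to 3352 with 3 to 6 members (PANC-1 EVs against untreated) and 133 to 1308 (between EVs). Residual medium against untreated called 1427 to 2540 genes in HPDE, PANC-1 against PPCL-68 EVs 3 to 5 members in HPDE, and the PANC-1 line difference 1994 to 4318 genes. Signs turned within these ranges, none of them a call. In HPNE these were BCL2L1 (-0.085 to 0.24), MCL1 (-0.11 to 0.051) and BAK1 (-0.30 to 0.059) for PANC-1 EVs, and BAK1 for PPCL-68 EVs (-0.064 to 0.088) and between EVs (-0.32 to 0.047). In HPDE they were BAK1 for PANC-1 EVs against residual medium (-0.068 to 0.033) and untreated (-0.024 to 0.077), MCL1 (-0.026 to 0.012), BBC3 (-0.013 to 0.21) and TNFRSF10A (-0.046 to 0.039) for PPCL-68 EVs, BAK1 for PPCL-68 EVs against untreated (-0.052 to 0.033), and MCL1 (-0.027 to 0.0046), BAK1 (-0.024 to 0.086) and BCL2L11 (-0.00083 to 0.092) between EVs. For line differences they were MCL1 (-0.065 to 0.0999) and BAK1 (-0.070 to 0.29) for PANC-1 EVs, BAK1 (-0.13 to 0.019), BCL2L11 (-0.37 to 0.094) and TNFRSF10A (-0.034 to 0.070) for PPCL-68 EVs, and PMAIP1 (-0.16 to 0.082) for residual medium. Low read numbers limit BCL2 and, in HPNE, TNFRSF10A, and triplicates limit the rest.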
